A study of Mus musculus with 7 samples.

Results

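Aminoacyl-tRNA synthetases attach each amino acid to its transfer RNA. The 36 mouse genes described here encode 20 subunits or enzymes of the cytosolic set and 16 of the mitochondrial set. They were chosen by gene symbol from the 24047 genes of the deposited table, with no threshold on measured values but with earlier results of these data known, so their counts describe the set and are not independent support. All 36 passed the filter on low counts, as did 12875 genes in all. RNA was sequenced from SMB21 cells, a medulloblastoma line of the strain background Ptch1tm1Mps/J (labelled Ptch mutant and Adult), cultured as neurospheres. There were 3 Ofd1 CRISPR libraries, in which a centriole and basal body gene was targeted, and 2 Kif3a CRISPR libraries, in which a kinesin motor subunit gene of the primary cilium was targeted. The 2 GFP control libraries carry the genotype label CRISPR-GFP. Every group shares the Ptch1-mutant background, in which the Hedgehog pathway is active without ligand, and cells were collected 2 weeks after infection with the lentiviral CRISPR vector. All libraries come from the same cell line. The guides, and the choice between clones and pools of cells, are not stated in the labels. The labels call the replicates biological. The series text counts 1 more GFP control replicate, which was not analysed here.

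Cytosol and mitochondria translate separately and charge their own transfer RNAs, and nuclear genes encode the enzymes of both compartments. Most amino acids have a separate gene for each; Gars and Kars supply both compartments from the same gene, and Eprs joins the glutamyl and prolyl activities in a single protein. Several cytosolic enzymes sit together in the multi-synthetase complex. When an amino acid is short, uncharged transfer RNA activates the kinase Gcn2 (gene Eif2ak4), translation of the transcription factor Atf4 rises, and Atf4 induces genes of amino acid supply. Many cytosolic synthetase genes are known Atf4 targets. Atf4 and its partners bind the C/EBP-ATF response element (CARE).

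Most cytosolic synthetase transcripts were lower with either cilium gene targeted, while mitochondrial synthetase transcripts had median changes near 0. In Ofd1 CRISPR against GFP control 13 of 20 cytosolic genes fell, 1 rose and 6 did not pass, while 0 of 16 mitochondrial genes fell, 1 rose and 15 did not pass. In Kif3a CRISPR against GFP control 14 cytosolic genes fell, 0 rose and 6 missed the threshold. Of the mitochondrial genes there 1 fell, 3 rose and 12 did not pass. At an unadjusted p under 0.05, 3 mitochondrial genes were lower in Ofd1 CRISPR and 1 cytosolic gene was higher in Kif3a CRISPR, and DESeq2 called 0 of each. A gene is called here at an adjusted p under 0.05 in edgeR's quasi-likelihood test over all 12875 genes. Of these, 14.9% were called in Ofd1 CRISPR (8.09% lower and 6.79% higher) and 20.1% in Kif3a CRISPR (10.9% lower and 9.19% higher). At these shares few of 16 genes would be called in either comparison. The mitochondrial calls, 1 of 16 in Ofd1 CRISPR and 4 of 16 in Kif3a CRISPR, thus do not set these genes apart from all genes. The median log2 fold change of the cytosolic genes was -0.56 in Ofd1 CRISPR and -0.64 in Kif3a CRISPR; that of the mitochondrial genes was 0.04 and 0.01, and that of all tested genes was 0.00282 and 0.00797. The 13 genes that fell in Ofd1 CRISPR all fell in Kif3a CRISPR, where Vars was the 14th; both comparisons use the same 2 GFP control libraries. In bulk RNA, fewer cells that express a gene and less RNA per cell cannot be told apart.

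**Figure D1:**
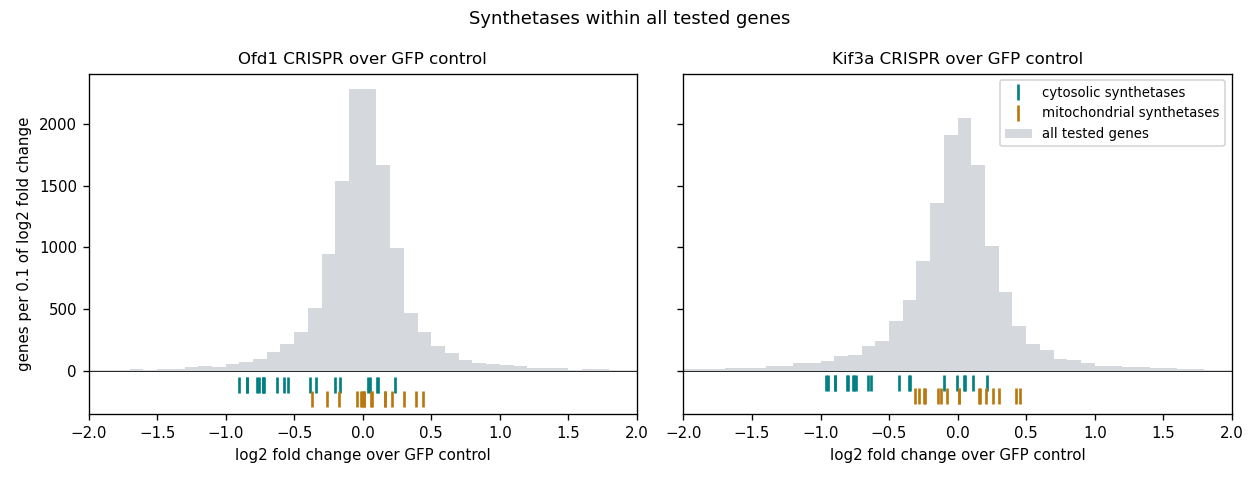
Histograms of the edgeR log2 fold change over GFP control for all 12875 tested genes (grey, genes per 0.1; genes beyond the axis are not shown), for Ofd1 CRISPR on the left and Kif3a CRISPR on the right, with a tick for each synthetase below. The 20 cytosolic genes run from -0.90 to 0.23 in Ofd1 CRISPR, with most ticks left of the grey peak, and the 16 mitochondrial genes from -0.37 to 0.44 on both sides of it.

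The count of cytosolic genes that fell in Ofd1 CRISPR was 11 on omission of GFP control replicate 2, 14 on omission of Ofd1 CRISPR replicate 3 and 13 with any other single library left out. In Kif3a CRISPR it was 6 without Kif3a CRISPR replicate 1 (Aars, Eprs, Nars, Sars, Tars and Yars), 12 and 13 on omission of GFP control replicate 2 and replicate 1, and 14 with any other single library left out. Where a group is left with 1 library, its spread is assumed to be that of the other groups. Counts of mitochondrial calls were small and rested on single libraries: the rises numbered 0 to 3 in Ofd1 CRISPR and 0 to 4 in Kif3a CRISPR when each library was left out in turn.

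Levels are given as CPM, counts relative to the library total scaled with TMM factors, and each p is an edgeR value adjusted over all tested genes unless another tool is named. Library totals ran from 17961767 to 23022701 counts. Kif3a stood at 90.6, 93.1 and 97.4 CPM in Ofd1 CRISPR and 73.9 and 60.5 CPM in Kif3a CRISPR, against 104 and 104 CPM in GFP control. Ofd1 stood at 21.0, 20.0 and 22.0 CPM, 31.7 and 29.0 CPM, and 22.6 and 23.2 CPM in the same groups. The Kif3a transcript fell by 0.63 on the log2 scale in Kif3a CRISPR (adjusted p = 0.000854), whereas Ofd1 had a log2 fold change of -0.12 in Ofd1 CRISPR (adjusted p = 0.398), so against GFP control its transcript does not check those labels. Ofd1 rose by 0.41 in Kif3a CRISPR (adjusted p = 0.0126) and was lower in Ofd1 CRISPR than in Kif3a CRISPR (log2 difference -0.53, adjusted p = 0.0399). That rise was lost on omission of either GFP control library (adjusted p = 0.103 and 0.0639) or of Kif3a CRISPR replicate 1 (0.114). The call between the CRISPR groups was lost on omission of any library but Ofd1 CRISPR replicates 1 and 3 (adjusted p = 0.0889 to 0.924) and in the fit of those 2 groups alone (0.0962). All 12 markers of the granule neuron lineage and medulloblastoma were detected in every library, with a summed level of 4424 to 4793 CPM in Ofd1 CRISPR, 4555 to 4767 CPM in Kif3a CRISPR and 4391 to 4463 CPM in GFP control. Members moved in opposite directions within that sum: in each comparison with GFP control 5 (Atoh1, Pax6, Barhl1, Meis1 and Nhlh1) were called higher and 3 (Gli1, Mycn and Ccnd1) lower. For all tested genes the shares were 6.79% higher and 8.09% lower in Ofd1 CRISPR, and 9.19% higher and 10.9% lower in Kif3a CRISPR. Atoh1, a granule precursor factor, stood at 496 to 619.7 CPM in Ofd1 CRISPR and 549 to 567 CPM in Kif3a CRISPR, against 364 to 388 CPM in GFP control. Gli1, a Hedgehog target, stood at 167 to 326 CPM in Ofd1 CRISPR and 201 to 309 CPM in Kif3a CRISPR, against 427 to 477 CPM in GFP control. GFP control replicate 1 stood apart in 15 microglia and macrophage markers, whose sum was 3.44 to 4.88 CPM in Ofd1 CRISPR, 3.37 to 3.67 CPM in Kif3a CRISPR, and 32.2 and 2.96 CPM in GFP control; of these markers 4 to 12 were at 0 in the CRISPR libraries, against 2 in GFP control replicate 1 and 13 in replicate 2. Without GFP control replicate 1, 13 cytosolic genes fell in either comparison. The 9 oligodendrocyte lineage markers moved with the groups, with sums of 96.0 to 183 CPM in Ofd1 CRISPR, 103 to 145 CPM in Kif3a CRISPR and 271 to 285 CPM in GFP control. Most of this was Pdgfra, and Mog and Sox10 were at 0 in every library. The 8 astrocyte and stem cell markers summed to 758 to 794 CPM, 740.4 to 742 CPM and 853 to 911 CPM in the same groups, the 10 fibroblast and mesenchymal markers to 45.7 to 50.9 CPM, 43.3 to 43.6 CPM and 57.2 to 72.9 CPM, and the 7 endothelial markers to 1.85 to 2.39 CPM, 1.51 to 1.56 CPM and 3.01 to 3.78 CPM. Most of the fibroblast and mesenchymal sum was Fn1, at 43.3 to 49.0, 41.4 to 42.3 and 54.2 to 70.1 CPM. Astrocyte and stem cell markers did not move alike. Sox9 stood at 126 to 156, 123 to 138 and 224 to 232 CPM, and Sox2 was also lower in every CRISPR library. Gfap stood at 34.9 to 134, 59.0 to 92.1 and 43.3 to 43.4 CPM, and Aqp4 was at 0 in every library. The part of these markers in the synthetase results was not tested.

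Summed over the 20 cytosolic genes, the level was 3843, 4606 and 4484 CPM with Ofd1 targeted and 3997 and 4307 CPM with Kif3a targeted, against 6103 and 6387 CPM in GFP control. Every CRISPR library lay below both GFP control libraries. Cytosolic synthetases took 0.434% ± 0.0387 of all counts in Ofd1 CRISPR (SD, n = 3) and 0.417% ± 0.0217 in Kif3a CRISPR (SD, n = 2), against 0.614% ± 0.0195 in GFP control (SD, n = 2). The 16 mitochondrial genes summed to 894, 867 and 866 CPM in Ofd1 CRISPR and 846 and 845 CPM in Kif3a CRISPR, against 871 and 852 CPM in GFP control. Here the Ofd1 CRISPR and GFP control libraries overlapped, and both Kif3a CRISPR libraries lay below GFP control by a small margin. The ratio of summed cytosolic to summed mitochondrial counts, which no scaling of library totals can move, was 4.30, 5.31 and 5.18 in Ofd1 CRISPR and 4.73 and 5.10 in Kif3a CRISPR, against 7.01 and 7.49 in GFP control. Ofd1 CRISPR replicate 1 had the lowest cytosolic sum of the 7 libraries, and it was the lowest of the 3 Ofd1 CRISPR libraries for each of the 13 cytosolic genes that fell in Ofd1 CRISPR. Kif3a CRISPR replicate 1 lay below replicate 2 for 11 of the 14 that fell in Kif3a CRISPR.

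**Figure D2:**
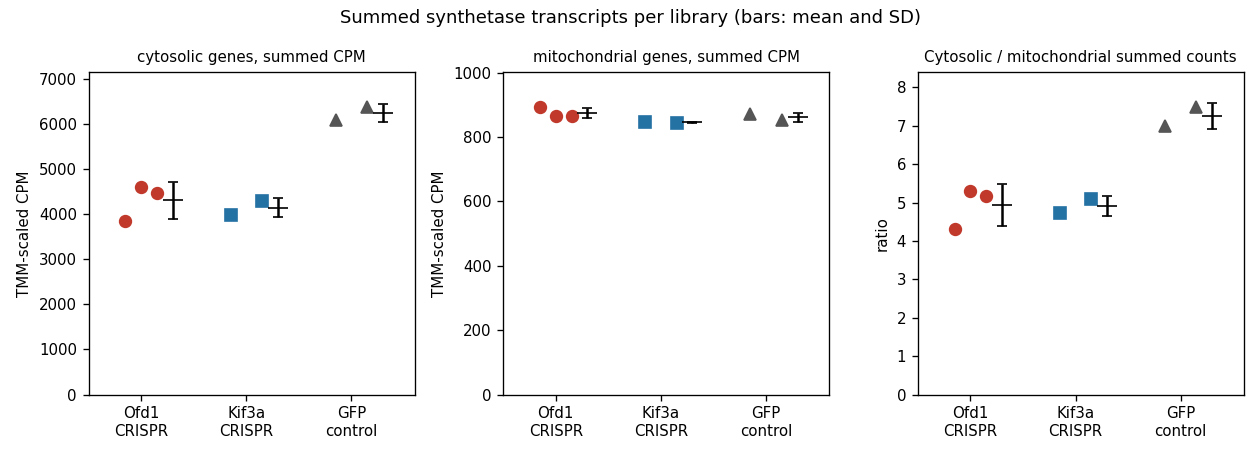
Summed TMM-scaled CPM of the 20 cytosolic genes (left) and of the 16 mitochondrial genes (middle), and the ratio of their summed counts (right), per library for Ofd1 CRISPR, Kif3a CRISPR and GFP control; axes start at 0 and bars give the mean and SD. The cytosolic sums of the 5 CRISPR libraries lie between 3843 and 4606 CPM, below 6103 CPM, while all mitochondrial sums lie between 845 and 894 CPM.

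To show what the promoters of genes that fell together hold, the RefSeq promoter windows (GRCm38.p6, 250 bases before to 50 after each start) of 26 of the 36 genes were searched on both strands for the CARE core TGATGNAA. The core was found for 5 of 12 cytosolic genes with a window and for 0 of 14 mitochondrial genes; 4.51% of all 27025 genes with a window hold it. The 5 were Aars, Gars, Iars, Tars and Yars, out of 8 with a window that fell in both comparisons (the others were Eprs, Farsb and Sars). Of the 4 other cytosolic genes with a window, Dars, Farsa, Kars and Qars, 0 hold it. At a share of 4.51%, few or none of 4 or of 14 genes would hold the core. The absence from these genes and from the mitochondrial genes thus does not set them apart from all genes. The strict form TGATGCAA, which is contained in the core, occurs for Aars, Iars, Tars and Yars, against 1.03% of all genes. Windows were not held for Cars, Hars, Hars2, Lars, Mars, Nars, Pars2, Rars, Vars and Wars. The stretches below run 5′ to 3′ along the gene, with the core or its reverse complement in capitals, and Asns, which encodes asparagine synthetase and is a classical Atf4 target, is set beside them. They lie at chr8:111033704-111033763, plus strand for Aars, chr6:55037941-55038000, plus strand for Gars, chr13:49682126-49682155, plus strand for Iars, chr15:11399659-11399718, minus strand for Tars, chr4:129189895-129189924, plus strand for Yars and chr6:7693210-7693269, minus strand for Asns.
Aars: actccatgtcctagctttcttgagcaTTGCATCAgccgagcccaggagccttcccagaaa
Gars: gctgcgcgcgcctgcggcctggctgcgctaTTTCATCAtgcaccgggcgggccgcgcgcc
Iars: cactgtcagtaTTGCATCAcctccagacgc
Tars: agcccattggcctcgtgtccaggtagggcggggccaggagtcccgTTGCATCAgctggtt
Yars: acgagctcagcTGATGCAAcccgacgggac
Asns: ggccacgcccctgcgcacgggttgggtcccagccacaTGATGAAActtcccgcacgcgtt

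Counted from the annotated start, the first base of the capitals lies at -112 in Aars, -30 in Gars, 8 in Iars, -15 in Tars, 4 in Yars and -23 in Asns. Aars holds another core, TTTCATCA, at 10. A match describes the letters of the window, not a bound site. The cAMP response element TGACGTCA occurs in 0 of the 26 windows, against 2.03% of all genes. The E-box CACGTG, the site of Myc and Usf proteins, occurs for Aars at -146, Iars at -69, Farsb at -39 and Tars at 20, which are 4 of the 8 that fell with a window, for Ears2 at 22 and for 8.09% of all genes. None of these E-boxes overlaps a CARE core.

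Of the 8 enzymes of the multi-synthetase complex, 5 fell in Ofd1 CRISPR and 5 in Kif3a CRISPR, and 3 did not pass in either. Among all tested genes 8.09% fell in Ofd1 CRISPR and 10.9% in Kif3a CRISPR. Eprs, the glutamyl-prolyl enzyme, stood at 565, 687 and 677 CPM with Ofd1 targeted and at 618 and 607 CPM with Kif3a targeted, against 1029 and 1104 CPM in GFP control. The log2 fold change was -0.73 in Ofd1 CRISPR (SE 0.0856, adjusted p = 0.000422) and -0.80 in Kif3a CRISPR (SE 0.0955, adjusted p = 0.000229). The groups did not overlap, and Eprs kept 60.3% and 57.5% of its GFP control level. For Iars, the isoleucyl enzyme, the Ofd1 CRISPR libraries held 81.9, 122 and 105 CPM and the Kif3a CRISPR libraries 86.5 and 101 CPM, with 167 and 180.3 CPM in GFP control. Iars fell by 0.76 on the log2 scale in Ofd1 CRISPR (SE 0.129, adjusted p = 0.00301) and by 0.90 in Kif3a CRISPR (SE 0.144, adjusted p = 0.00143). Ofd1 CRISPR replicate 2 was the closest to the GFP control libraries, and still below both. Lars, the leucyl enzyme, which also serves as a leucine sensor for mTORC1, stood at 144, 197 and 191 CPM with Ofd1 targeted and at 165 and 178 CPM with Kif3a targeted, against 283 and 300.3 CPM in GFP control. It fell by 0.72 on the log2 scale in Ofd1 CRISPR (SE 0.111, adjusted p = 0.00174) and by 0.76 in Kif3a CRISPR (SE 0.123, adjusted p = 0.00141). All CRISPR libraries were below both GFP control libraries.

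For Mars, the methionyl enzyme, the Ofd1 CRISPR libraries held 145, 184 and 173 CPM and the Kif3a CRISPR libraries 142 and 172 CPM, with 241 and 246 CPM in GFP control. The log2 fold change was -0.54 in Ofd1 CRISPR (SE 0.103, adjusted p = 0.00521) and -0.63 in Kif3a CRISPR (SE 0.114, adjusted p = 0.00262). Its 2 Kif3a CRISPR libraries span a range almost as wide as that of the Ofd1 CRISPR libraries. Rars, the arginyl enzyme, stood at 136, 139.8 and 139 CPM with Ofd1 targeted and at 137 and 137 CPM with Kif3a targeted, against 169 and 181 CPM in GFP control. Rars fell by 0.34 on the log2 scale in Ofd1 CRISPR (SE 0.0621, adjusted p = 0.00414) and by 0.35 in Kif3a CRISPR (SE 0.0685, adjusted p = 0.00439). The smallest fall of the 5 was thus also the one with the tightest CRISPR libraries. It lost its call without GFP control replicate 2 in both comparisons (adjusted p = 0.0839 in Ofd1 CRISPR and 0.0678 in Kif3a CRISPR). Without Kif3a CRISPR replicate 1, calls were lost in Kif3a CRISPR for Iars (adjusted p = 0.0572), Lars (0.0519), Mars (0.0708) and Rars (0.0528). The other enzymes of the complex did not pass. Kars, the lysyl enzyme of both compartments, had 212 to 225 CPM in Ofd1 CRISPR and 214 to 226 CPM in Kif3a CRISPR, against 208 to 215 CPM in GFP control (log2 fold changes 0.05 and 0.05, SE 0.0643 and 0.0703, adjusted p = 0.639 and 0.621). Qars, the glutaminyl enzyme, had log2 fold changes of 0.11 and 0.05 (adjusted p = 0.317 and 0.682). Dars, the aspartyl enzyme, had -0.16 and -0.10 (adjusted p = 0.243 and 0.511); without Ofd1 CRISPR replicate 3, which at 355 CPM overlapped GFP control, its value in Ofd1 CRISPR was -0.27 (adjusted p = 0.0189).

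**Figure D3:**
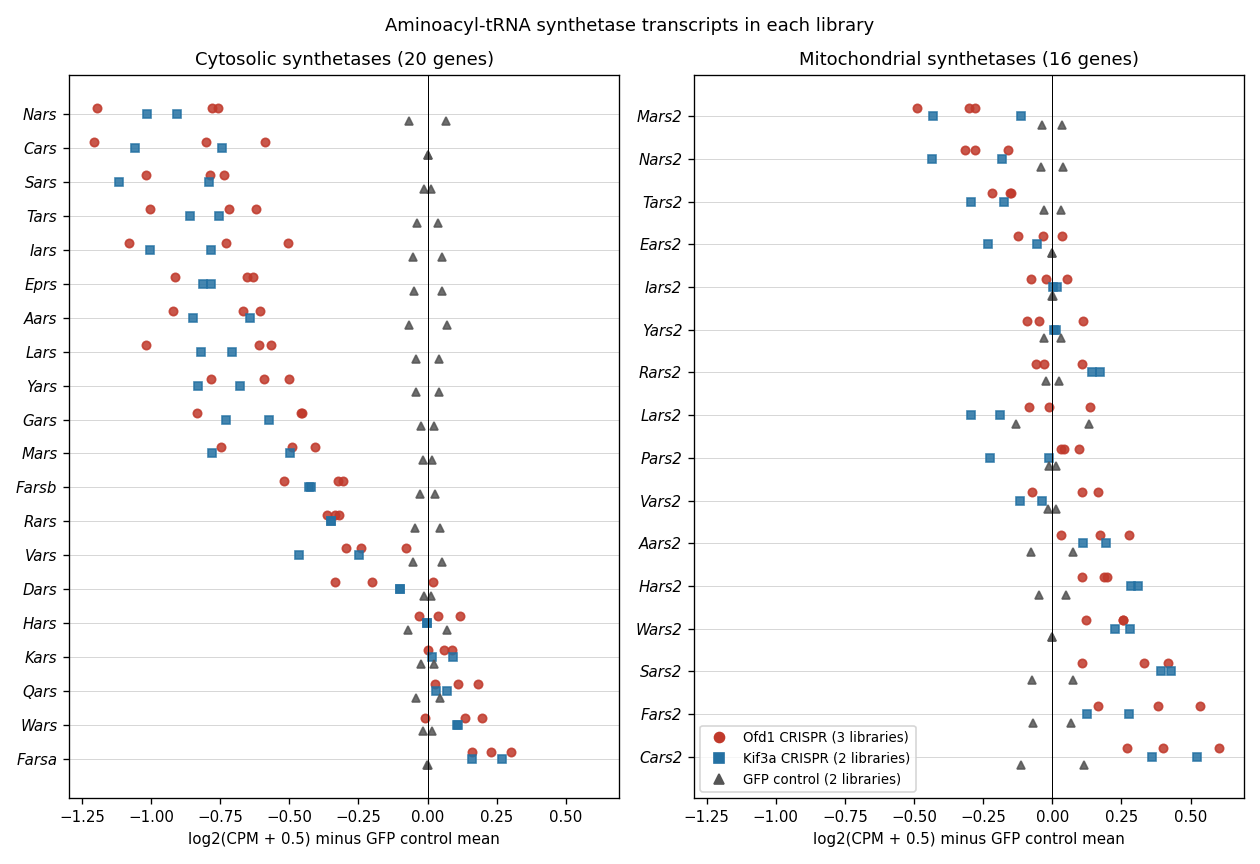
Each point is a library's log2(CPM + 0.5) minus the mean of the GFP control libraries, for the 20 cytosolic (left) and 16 mitochondrial genes (right), with Ofd1 CRISPR as circles, Kif3a CRISPR as squares and GFP control as triangles. For the upper 14 cytosolic genes, Nars to Vars, all 5 CRISPR libraries lie left of both GFP control libraries, whereas the mitochondrial genes scatter on both sides of 0. Among all tested genes 25% lie below both GFP control libraries in Ofd1 CRISPR and 32.4% in Kif3a CRISPR. No share was computed for all 5 CRISPR libraries together.

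Among the 12 cytosolic genes outside the complex, 8 fell and 1 rose in Ofd1 CRISPR, and 9 fell and 0 rose in Kif3a CRISPR. The shares of all tested genes were 8.09% lower and 6.79% higher in Ofd1 CRISPR, and 10.9% lower and 9.19% higher in Kif3a CRISPR. The largest fall of the whole set was that of Nars. Nars, the asparaginyl enzyme, stood at 219, 292 and 296 CPM with Ofd1 targeted and at 248 and 267 CPM with Kif3a targeted, against 478 and 526 CPM in GFP control. It fell by 0.90 on the log2 scale in Ofd1 CRISPR (SE 0.112, adjusted p = 0.000617) and by 0.96 in Kif3a CRISPR (SE 0.125, adjusted p = 0.000396). This left 53.5% and 51.3% of the GFP control level. For Sars, the seryl enzyme, the Ofd1 CRISPR libraries held 219, 257 and 267 CPM and the Kif3a CRISPR libraries 204 and 256 CPM, with 440.0 and 448 CPM in GFP control. The log2 fold change was -0.84 in Ofd1 CRISPR (SE 0.101, adjusted p = 0.000460) and -0.95 in Kif3a CRISPR (SE 0.113, adjusted p = 0.000226). No CRISPR library reached the lower GFP control library, and the call held without any 1 of the 7 libraries in both comparisons. Tars, the threonyl enzyme, stood at 184, 240.4 and 225 CPM with Ofd1 targeted and at 204 and 219 CPM with Kif3a targeted, against 360.1 and 379 CPM in GFP control. Tars fell by 0.77 on the log2 scale in Ofd1 CRISPR (SE 0.0968, adjusted p = 0.000650) and by 0.81 in Kif3a CRISPR (SE 0.108, adjusted p = 0.000449). Again the groups were apart. For Aars, the alanyl enzyme, with a CARE core on each side of its start, the Ofd1 CRISPR libraries held 293, 365 and 350.0 CPM and the Kif3a CRISPR libraries 308 and 357 CPM, with 530.3 and 583 CPM in GFP control. It fell by 0.73 on the log2 scale in Ofd1 CRISPR (SE 0.0971, adjusted p = 0.000825) and by 0.74 in Kif3a CRISPR (SE 0.108, adjusted p = 0.000771). The CRISPR libraries lay below both GFP control libraries, whose own gap was small beside the fall.

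Gars, the glycyl enzyme that also serves mitochondria, stood at 303, 394 and 395 CPM with Ofd1 targeted and at 327 and 364 CPM with Kif3a targeted, against 532 and 551 CPM in GFP control. The log2 fold change was -0.57 in Ofd1 CRISPR (SE 0.104, adjusted p = 0.00413) and -0.65 in Kif3a CRISPR (SE 0.116, adjusted p = 0.00250). Its Kif3a CRISPR call was lost without Kif3a CRISPR replicate 1 (adjusted p = 0.0706). The subunits of the cytosolic phenylalanyl enzyme, a tetramer of Farsa and Farsb chains, moved apart. For Farsb, the beta subunit, the Ofd1 CRISPR libraries held 126, 144 and 146 CPM and the Kif3a CRISPR libraries 135 and 134 CPM, with 177 and 184 CPM in GFP control. Farsb fell by 0.38 on the log2 scale in Ofd1 CRISPR (SE 0.0745, adjusted p = 0.00616) and by 0.43 in Kif3a CRISPR (SE 0.0822, adjusted p = 0.00391). That call was lost without GFP control replicate 2 in Ofd1 CRISPR (adjusted p = 0.0704) and without Kif3a CRISPR replicate 1 in Kif3a CRISPR (0.0587). Farsa, the catalytic alpha subunit, stood at 92.4 to 102 CPM in Ofd1 CRISPR and 92.4 to 99.6 CPM in Kif3a CRISPR, against 82.8 and 82.5 CPM in GFP control, with every CRISPR library above both. It rose by 0.23 in Ofd1 CRISPR (SE 0.0711, adjusted p = 0.0475) and had a log2 fold change of 0.22 in Kif3a CRISPR (SE 0.0774, adjusted p = 0.0706). The rise of Farsa is at the edge of the threshold: with RLE factors its adjusted p was 0.0525, by DESeq2 0.0561, and of the 7 fits with a single library left out, it passed in that without Ofd1 CRISPR replicate 3. Hars, the histidyl enzyme, had log2 fold changes of 0.04 and -0.00 (adjusted p = 0.746 and 0.982), and its groups overlapped.

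Class I enzymes outside the complex also held both genes that fell and genes that did not pass. Cars, the cysteinyl enzyme, stood at 75.9, 117 and 101 CPM with Ofd1 targeted and at 84.3 and 105 CPM with Kif3a targeted, against 176 and 176 CPM in GFP control. It fell by 0.85 on the log2 scale in Ofd1 CRISPR (SE 0.140, adjusted p = 0.00255) and by 0.90 in Kif3a CRISPR (SE 0.157, adjusted p = 0.00227). Cars had the widest spread among the Ofd1 CRISPR libraries in the plot of single libraries, and its Kif3a CRISPR call was lost without Kif3a CRISPR replicate 1 (adjusted p = 0.0739). For Yars, the tyrosyl enzyme, the Ofd1 CRISPR libraries held 107, 129.7 and 122 CPM and the Kif3a CRISPR libraries 103 and 115 CPM, with 179 and 189 CPM in GFP control. The log2 fold change was -0.62 in Ofd1 CRISPR (SE 0.0854, adjusted p = 0.000941) and -0.76 in Kif3a CRISPR (SE 0.0951, adjusted p = 0.000321). Both Yars calls held without any 1 library. Vars, the valyl enzyme, stood at 313 to 363 CPM in Ofd1 CRISPR and 277 to 323 CPM in Kif3a CRISPR, against 369.9 to 397 CPM in GFP control. It fell by 0.35 in Kif3a CRISPR (SE 0.0951, adjusted p = 0.0222) and had a log2 fold change of -0.20 in Ofd1 CRISPR (SE 0.0863, adjusted p = 0.135). Omission of either GFP control library (replicate 1, 0.0642, and replicate 2, 0.152, both adjusted p) or of Kif3a CRISPR replicate 1 (0.225) ended the Vars call. Wars, the tryptophanyl enzyme, had log2 fold changes of 0.11 and 0.11 (SE 0.0745 and 0.0813, adjusted p = 0.344 and 0.374). By catalytic class, leaving out Eprs, which joins both, 6 of 9 class I genes and 6 of 10 class II genes fell in Ofd1 CRISPR, with medians of -0.54 and -0.48. In Kif3a CRISPR 7 of 9 and 6 of 10 fell, with medians of -0.63 and -0.54. Falls made up 8.09% of all tested genes in Ofd1 CRISPR and 10.9% in Kif3a CRISPR. The complex and the other cytosolic enzymes had medians of -0.44 and -0.60 in Ofd1 CRISPR and of -0.49 and -0.70 in Kif3a CRISPR.

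**Figure D4:**
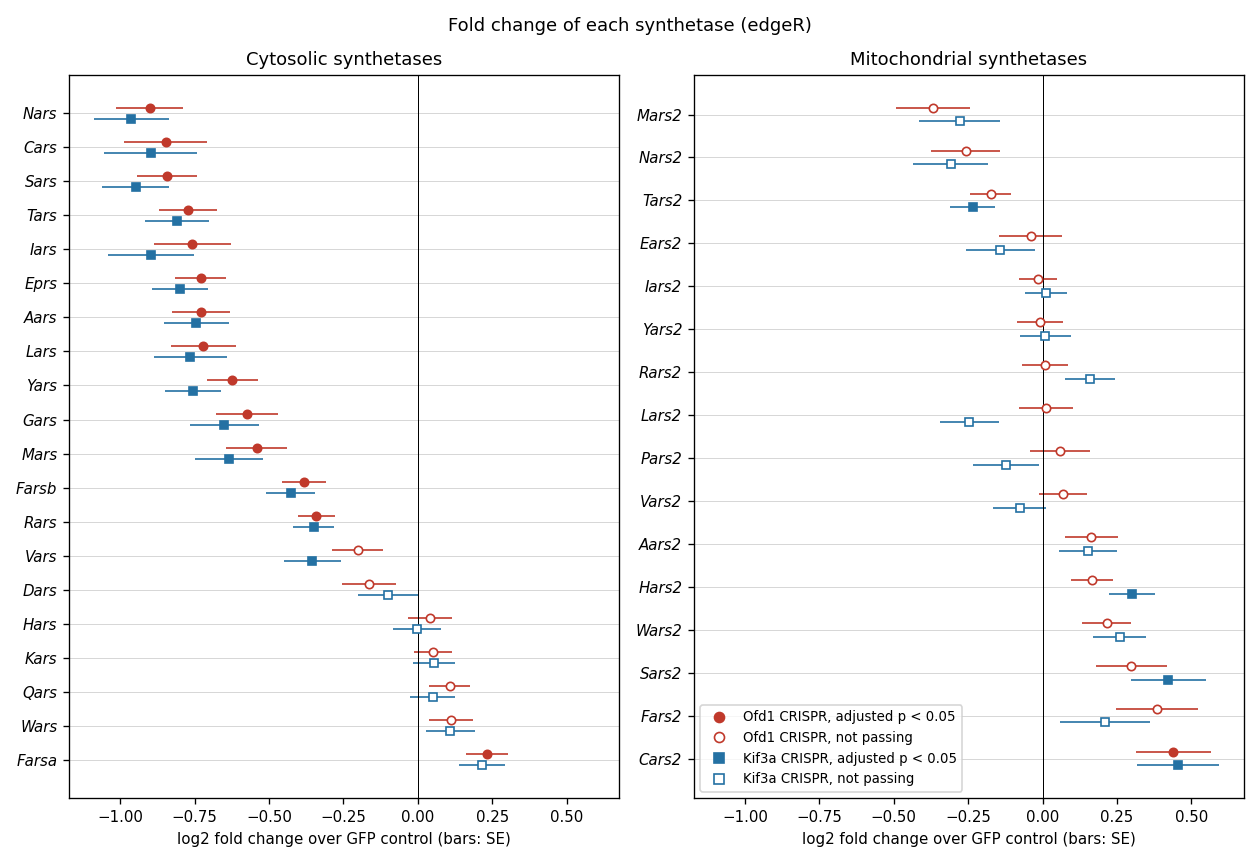
The edgeR log2 fold change over GFP control with its SE for the 20 cytosolic (left) and 16 mitochondrial genes (right), as circles for Ofd1 CRISPR and squares for Kif3a CRISPR; filled symbols passed an adjusted p of 0.05. Filled symbols run from -0.96 (Nars in Kif3a CRISPR) to -0.34 (Rars in Ofd1 CRISPR) among the cytosolic falls, and 1 mitochondrial gene is filled for Ofd1 CRISPR and 4 for Kif3a CRISPR.

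The mitochondrial enzymes split in both directions around 0. In Ofd1 CRISPR Cars2, the mitochondrial cysteinyl enzyme, was the member that rose: it stood at 22.9, 19.9 and 18.1 CPM in Ofd1 CRISPR and 21.7 and 19.3 CPM in Kif3a CRISPR, against 13.8 and 16.2 CPM in GFP control. The rise was 0.44 on the log2 scale in Ofd1 CRISPR (SE 0.127, adjusted p = 0.0378) and 0.45 in Kif3a CRISPR (SE 0.137, adjusted p = 0.0365). Cars2 therefore rose where its cytosolic counterpart Cars fell. For Hars2, the mitochondrial histidyl enzyme, the Ofd1 CRISPR libraries held 62.6, 59.1 and 63.1 CPM and the Kif3a CRISPR libraries 68.2 and 67.1 CPM, with 53.0 and 56.8 CPM in GFP control. Hars2 rose by 0.30 in Kif3a CRISPR (SE 0.0770, adjusted p = 0.0178) and had a log2 fold change of 0.17 in Ofd1 CRISPR (SE 0.0709, adjusted p = 0.137). All 5 CRISPR libraries were above both GFP control libraries. Sars2, the mitochondrial seryl enzyme, rose by 0.42 in Kif3a CRISPR (SE 0.127, adjusted p = 0.0362) and had 0.30 in Ofd1 CRISPR (SE 0.118, adjusted p = 0.110), at 15.6 to 19.5 CPM in Ofd1 CRISPR and 19.1 to 19.7 CPM in Kif3a CRISPR, against 13.7 to 15.2 CPM in GFP control. Tars2, the mitochondrial threonyl enzyme, was the member that fell; it fell by 0.23 in Kif3a CRISPR (SE 0.0758, adjusted p = 0.0477); in Ofd1 CRISPR it had a log2 fold change of -0.17 (SE 0.0689, adjusted p = 0.110). These calls are less firm than those of the cytosolic genes. Each of the 4 Kif3a CRISPR calls, on Cars2, Hars2, Sars2 and Tars2, ended on omission of either GFP control or either Kif3a CRISPR library. In that order of genes the adjusted p was 0.260, 0.191, 0.238 and 0.157 on omission of GFP control replicate 1 and 0.0536, 0.0619, 0.0796 and 0.272 on omission of replicate 2. It was 0.233, 0.106, 0.175 and 0.285 on omission of Kif3a CRISPR replicate 1 and 0.0664, 0.0573, 0.0973 and 0.0571 on omission of replicate 2. Tars2 also missed the threshold on omission of Ofd1 CRISPR replicate 2 (0.0694). The Ofd1 CRISPR call on Cars2 held on omission of Ofd1 CRISPR replicate 3 and ended on that of any other library: the adjusted p was 0.0955 and 0.0693 on omission of Ofd1 CRISPR replicate 1 and 2, 0.0592 and 0.0584 for the Kif3a CRISPR libraries, and 0.292 and 0.0687 for the GFP control libraries.

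The remaining 12 mitochondrial genes passed in neither comparison. Above 0 in both were Aars2, the alanyl enzyme, with log2 fold changes of 0.16 and 0.15 in Ofd1 and Kif3a CRISPR, Fars2, the phenylalanyl enzyme, with 0.39 and 0.21, Wars2, the tryptophanyl enzyme, with 0.22 and 0.26, and Rars2, the arginyl enzyme, with 0.01 and 0.16. Below 0 in both were Mars2, the methionyl enzyme, with -0.37 and -0.28, Nars2, the asparaginyl enzyme, with -0.26 and -0.31, and Ears2, the glutamyl enzyme, with -0.04 and -0.14. Iars2 and Yars2, the isoleucyl and tyrosyl enzymes, lay close to 0 in both (-0.02 and 0.01 for Iars2, -0.01 and 0.01 for Yars2). Lars2, the leucyl enzyme, had 0.01 and -0.25, Pars2, the prolyl enzyme, 0.06 and -0.12, and Vars2, the valyl enzyme, 0.07 and -0.08. In Ofd1 CRISPR 3 mitochondrial genes had all libraries below both GFP control libraries and 6 had them above, and among all tested genes 25% and 24.5% did so. In Kif3a CRISPR 7 lay below and 8 above, where 32.4% and 34% of all tested genes did. For the cytosolic genes the same counts were 14 below and 1 above in Ofd1 CRISPR, and 15 below and 2 above in Kif3a CRISPR.

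For each amino acid with both a cytosolic and a mitochondrial gene, the ratio of their counts within a library compares the compartments without any scaling. There are 17 such pairs, in which Eprs stands against Ears2 and Pars2, and Farsa and Farsb each against Fars2. In 15 of 17 pairs every Ofd1 CRISPR library was below both GFP control libraries, in 0 above, and in 2 the groups overlapped. In Kif3a CRISPR 16 were below, 0 above and 1 overlapped. The shares of single genes given above, 25% and 32.4%, are the nearest background; none was computed for ratios. The cysteine and serine pairs shifted the most. Cars over Cars2 was 3.31, 5.88 and 5.57 in Ofd1 CRISPR and 3.89 and 5.43 in Kif3a CRISPR, against 12.8 and 10.9 in GFP control. For serine, Sars over Sars2 was 11.9, 13.2 and 17.1 in Ofd1 CRISPR and 10.4 and 13.4 in Kif3a CRISPR, against 32.1 and 29.4 in GFP control. In these pairs the cytosolic gene was lower and the mitochondrial gene higher than in GFP control. For isoleucine, Iars over Iars2 was 0.489, 0.704 and 0.572 in Ofd1 CRISPR and 0.489 and 0.563 in Kif3a CRISPR, against 0.950 and 1.02 in GFP control. For tyrosine, Yars over Yars2 was 1.88, 2.04 and 2.21 in Ofd1 CRISPR and 1.75 and 1.94 in Kif3a CRISPR, against 3.11 and 3.16 in GFP control. The isoleucine count ratio was thus 0.950 and 1.02 in GFP control and 0.704 or less in every CRISPR library. Counts of different genes also depend on transcript length. Per kilobase of transcript, Iars stood at 39.3 CPM and Iars2 at 32.3 CPM in GFP control. In Ofd1 CRISPR they stood at 23.3 and 31.9, and in Kif3a CRISPR at 21.1 and 32.5. Of the Iars2 exon bases 22.9% overlap Rab3gap2, so its own level is uncertain. For asparagine, where Nars2 was also below GFP control, Nars over Nars2 was 15.9, 20.6 and 19.3 in Ofd1 CRISPR and 16.3 and 21.2 in Kif3a CRISPR, against 28.5 and 29.6 in GFP control. The methionine pair shifted less, with Mars over Mars2 at 11.8, 12.8 and 12.3 in Ofd1 CRISPR and 11.0 and 10.7 in Kif3a CRISPR, against 13.4 and 14.5 in GFP control. At the other end, Farsa over Fars2 was 6.64, 9.12 and 7.08 in Ofd1 CRISPR and 8.52 and 8.21 in Kif3a CRISPR, against 7.94 and 8.76 in GFP control, and the groups overlapped in both comparisons; Hars over Hars2 overlapped in Ofd1 CRISPR.

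**Figure D5:**
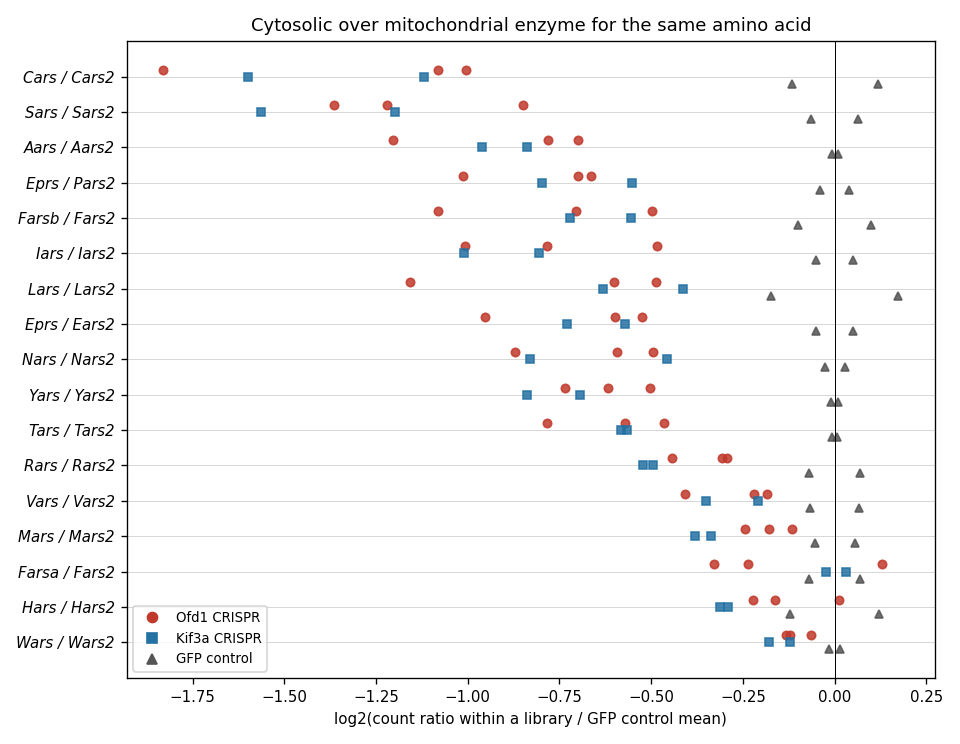
Log2 of the cytosolic over mitochondrial count ratio within each library, minus the mean of the GFP control libraries, for 17 pairs of genes for the same amino acid; circles are Ofd1 CRISPR, squares Kif3a CRISPR and triangles GFP control. The CRISPR libraries lie left of both GFP control libraries in 15 pairs for Ofd1 CRISPR and 16 for Kif3a CRISPR, and the cysteine and serine pairs lie farthest left.

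Levels between genes were compared per kilobase of transcript, with the longest protein-coding transcript of GENCODE M21 as the length. The median over cytosolic genes was 57.5 CPM per kilobase in Ofd1 CRISPR and 55.4 in Kif3a CRISPR, against 85.8 in GFP control. Over mitochondrial genes it was 12.1, 12.1 and 10.3 in the same groups. Gars was the highest in GFP control at 228 ± 5.47 CPM per kilobase (SD, n = 2), next to Eprs at 217 ± 10.8, from which it did not differ beyond the spread. Nars at 183 ± 12.2 and Dars at 161 ± 1.90 followed. In Ofd1 CRISPR Gars at 153 ± 22.1, Dars at 143 ± 18.1 and Eprs at 131 ± 13.8 CPM per kilobase (SD, n = 3) were within their spread of each other, and Nars stood at 97.9 ± 15.8. In Kif3a CRISPR Dars had 149.9 ± 0.133, Gars 145 ± 11.0 and Eprs 125 ± 1.65 CPM per kilobase (SD, n = 2). The aspartyl enzyme, which did not pass in either comparison, thus came level with the most abundant synthetases. Lars2 was the highest mitochondrial gene, at 49.5 ± 3.90 CPM per kilobase in Ofd1 CRISPR, 41.4 ± 2.18 in Kif3a CRISPR and 49.1 ± 6.32 in GFP control, where it ranked 17 of 36 and above the cytosolic Qars, Farsa, Iars and Wars by mean. Mars2, with a transcript of 11294 bases, was the lowest at 1.55 ± 0.0564 in GFP control. Exons of some members overlap other genes in this annotation, and the strand setting of the counting is not given. The largest shares of exon bases are 22.9% of Iars2 under Rab3gap2 on the other strand, 14.3% of Aars under Exosc6 on the same strand and 9.47% of Farsb under Sgpp2 on the other strand. Hars and Hars2 overlap each other (7.97% of Hars), and Mars overlaps Ddit3 in 1.99% of its exon bases. A processed copy, Kars-ps1, is annotated for Kars. Values of these genes are uncertain to that extent.

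Set directly against each other, Ofd1 CRISPR and Kif3a CRISPR gave synthetase levels that neither edgeR nor DESeq2 separated. In Ofd1 CRISPR against Kif3a CRISPR 0 of 36 genes were called by edgeR and 0 by DESeq2; 1 had an unadjusted p under 0.05, and 0.179% of all tested genes were called by edgeR, 0.00777% lower and 0.171% higher. The log2 differences ran from -0.15 for Rars2 to 0.26 for Lars2, with SE from 0.0628 to 0.144, and the smallest adjusted p was 0.419. Of the cytosolic genes 18 of 20 had a value above 0, with a median of 0.05; the median of the mitochondrial genes was -0.00181 and that of all tested genes -0.000578. Without Ofd1 CRISPR replicate 1 the cytosolic median was 0.15, and without Kif3a CRISPR replicate 1 it was -0.00257. A miss of the threshold does not show that the groups are alike: Lars2, at 0.259 with an SE of 0.0912, was uncalled, so differences several times the SE go uncalled here.

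Among the proteins that work with the synthetases, of 15 complex scaffolds and tRNA handling partners 4 fell and 11 did not pass in Ofd1 CRISPR (median -0.12), and the same numbers held in Kif3a CRISPR (median -0.13). Of all tested genes 8.09% fell and 6.79% rose in Ofd1 CRISPR, and 10.9% fell and 9.19% rose in Kif3a CRISPR. Xpot, the exporter of transfer RNA from the nucleus, stood at 189, 215 and 208 CPM with Ofd1 targeted and at 211 and 212 CPM with Kif3a targeted, against 291 and 304 CPM in GFP control. Xpot fell by 0.54 on the log2 scale in Ofd1 CRISPR (SE 0.0702, adjusted p = 0.000754) and by 0.49 in Kif3a CRISPR (SE 0.0777, adjusted p = 0.00130). Its groups did not overlap. Aarsd1, an alanyl-tRNA editing protein, fell by 0.25 and 0.29 in Ofd1 and Kif3a CRISPR (adjusted p = 0.0358 and 0.0233), and the GTPases Gtpbp1 and Gtpbp2 fell by 0.23 and 0.28 in Ofd1 CRISPR (adjusted p = 0.0473 and 0.0419). With library totals alone, the calls on Aarsd1, Gtpbp1 and Gtpbp2 in Ofd1 CRISPR were lost. They were also lost on omission of GFP control replicate 1 (adjusted p = 0.164, 0.140 and 0.0723) or replicate 2 (0.266, 0.343 and 0.368), and of most other single libraries; without GFP control replicate 2 the value of Gtpbp2 was -0.19. In Kif3a CRISPR the Aarsd1 call was lost on omission of GFP control replicate 1 (0.108), replicate 2 (0.168) or Kif3a CRISPR replicate 1 (0.171). The scaffolds of the multi-synthetase complex did not pass: Aimp1 had log2 fold changes of -0.23 and -0.24 (adjusted p = 0.0503 and 0.0515), Aimp2 -0.12 and -0.16 (0.336 and 0.211) and Eef1e1 -0.24 and -0.13 (0.191 and 0.527). On the mitochondrial side, 0 of 19 charging and translation factors fell and 0 rose by edgeR in Ofd1 CRISPR, as at an unadjusted p under 0.05 and by DESeq2 (median 0.02). At the shares of all tested genes, few of 19 genes would be called in either comparison. Small counts therefore do not set this list apart. In Kif3a CRISPR 1 of 19 fell (median 0.02): Gatc, a subunit of the amidotransferase that makes mitochondrial glutaminyl-tRNA, fell by 0.37 (adjusted p = 0.0177). Its call ended on omission of GFP control replicate 1 (0.0508) or 2 (0.165) or of Kif3a CRISPR replicate 1 (0.114) or 2 (0.0669).

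Of 17 cytosolic elongation and initiation factors 5 fell and 1 rose in Ofd1 CRISPR (median -0.13), and 4 fell in Kif3a CRISPR (median -0.09). The shares of all tested genes were 8.09% lower and 6.79% higher in Ofd1 CRISPR, and 10.9% lower in Kif3a CRISPR. Eif4ebp1, a repressor of translation initiation that Atf4 can induce, fell by 1.27 and 1.57 (adjusted p = 0.00156 and 0.000590), and the elongation factor Eef2 fell by 0.23 and 0.42 (adjusted p = 0.0328 and 0.00208). The Eef2 call in Ofd1 CRISPR was lost with library totals alone (adjusted p = 0.0502), under the replicate block (0.0686) and on omission of GFP control replicate 1 (0.191) or 2 (0.253) or of Ofd1 CRISPR replicate 1 (0.0541) or 2 (0.0515). The initiation factor subunit Eif2s2 fell by 0.50 and 0.38 (0.00843 and 0.0378). With GFP control replicate 2 left out, its Ofd1 CRISPR value did not pass (adjusted p = 0.0577). Its Kif3a CRISPR call was lost without GFP control replicate 1 (0.122) or 2 (0.151), Kif3a CRISPR replicate 1 (0.267) or 2 (0.0973), or Ofd1 CRISPR replicate 2 (0.0512). Amino acid response genes had the highest share of falls among the lists counted. Of 31 tested 26 fell and 5 did not pass in each comparison, with medians of -1.11 and -1.27; this list was chosen with falls of stress genes in these libraries already known, so its count is not independent support. For Atf4, the transcription factor at the head of the response, the Ofd1 CRISPR libraries held 309.7, 391 and 399.9 CPM and the Kif3a CRISPR libraries 329 and 394 CPM, with 574 and 631 CPM in GFP control. It fell by 0.72 on the log2 scale in Ofd1 CRISPR (SE 0.110, adjusted p = 0.00174) and by 0.74 in Kif3a CRISPR (SE 0.122, adjusted p = 0.00169). Without Kif3a CRISPR replicate 1 its Kif3a CRISPR value was -0.61 and the call was lost (adjusted p = 0.0567). Replicate 1 was lowest for Atf4 in each CRISPR group, as for the 13 cytosolic synthetases that fell in Ofd1 CRISPR. The same held for 11 of the 14 that fell in Kif3a CRISPR. This order was not particular to these genes. Among the lineage markers, Gli1 and Ccnd1 also had replicate 1 lowest in each CRISPR group, while Atoh1 had it highest. Asns, which encodes asparagine synthetase, stood at 106, 182 and 192 CPM with Ofd1 targeted and at 119 and 161 CPM with Kif3a targeted, against 431 and 473 CPM in GFP control. The log2 fold change was -1.50 in Ofd1 CRISPR (SE 0.195, adjusted p = 0.000772) and -1.69 in Kif3a CRISPR (SE 0.222, adjusted p = 0.000410). Trib3, an Atf4 target that feeds back on the response, fell by 2.56 and 3.42 (adjusted p = 0.000422 and 0.000137), Cebpb, a partner of Atf4, had log2 fold changes of -1.53 and -2.25 (0.000125 and 8.42e-06), and Cth, a cysteine synthesis enzyme, fell by 1.88 and 2.00 (0.000125 and 5.23e-05). The sensor kinase gene Eif2ak4 stood at 0.04 in Ofd1 CRISPR and -0.12 in Kif3a CRISPR on the log2 scale (adjusted p = 0.814 and 0.425).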

How the data were processed

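RNA sequencing counts per gene were analysed as deposited, in whole numbers with no normalization. Per the submitters' processing notes the authors used STAR, DESeq2 and mm9; for the counter, annotation, strand setting and filters nothing is given in these sources. The 36 genes and all other lists were chosen with earlier results of these data known.

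Of 24047 genes, 12875 passed edgeR's expression filter. Counts were scaled by TMM and tested with edgeR 4.0.16's quasi-likelihood F test (R 4.3.3) in a fit of all 7 libraries with group as the factor (4 residual degrees of freedom, common biological coefficient of variation 7.43%). P-values were adjusted by Benjamini-Hochberg over all tested genes, and the SE is the log2 fold change divided by the square root of F. The p-values measure the spread between cultures of the same line. No replicate pair differed as little as sampling noise allows (chi-square per degree of freedom at least 3.60). The fit was also run on simulated counts with the same spread for every gene. That setting is simpler than these libraries, and nothing here rests on it.

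All members are named: the 14 with the smallest adjusted p with every library's value (Hars2 included), the rest by range or fold change; Cars2 is also given by library, chosen after its values were seen. Up to 4 called genes of each other list are named, along with Atf4, Asns, Trib3, Xpot, Aimp1, Aimp2, Eef1e1, and Eif2ak4 and the nucleolar genes, chosen after their values were seen. Alternatives were RLE factors, library totals alone, DESeq2 1.42.0, other filters, 2-group fits, a replicate block and leaving out each library. Promoter windows come from a RefSeq table of GRCm38.p6 and transcript lengths from GENCODE M21, which were used for names, letters and lengths, not for the deposited counts. No interval is given for single counts, and depth was similar in all libraries.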

Additional observations from a re-analysis of the deposited data

How the results depend on the processing

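The 13 cytosolic falls in Ofd1 CRISPR and the 14 in Kif3a CRISPR were all shared with the fits under RLE factors, library totals alone, DESeq2, both other filters, 2-group fits and the replicate block, which added Dars in Ofd1 CRISPR (14 falls). Only Ofd1 CRISPR has a replicate 3, so the block gives that library its own term and takes it out of the comparisons. Dars in Ofd1 CRISPR was -0.268 with the block and -0.267 on omission of that library. The block is thus not a separate check from that omission. The labels do not say that a replicate number marks a shared batch, and the correlations leave the pairing unsettled: same-numbered libraries had correlations of deviations from the group mean of 0.146 and 0.153 (Ofd1 CRISPR with GFP control), -0.00102 (Kif3a CRISPR with GFP control, both numbers) and 0.276 and 0.207 (Ofd1 with Kif3a CRISPR). In a group of 2 libraries the deviations are exact opposites, so these values are tied to each other and are not 6 separate observations. With the block 3496 genes were called in Ofd1 CRISPR against GFP control, against 1915 without it, and 191 against 23 in Ofd1 against Kif3a CRISPR, where DESeq2 called 103 and the fit with no filter 80. The block gave 1 mitochondrial fall and 3 rises in Ofd1 CRISPR, and 2 mitochondrial falls and 1 cytosolic rise in Kif3a CRISPR.

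The cytosolic rise in Ofd1 CRISPR, Farsa, gave way to 0 rises under RLE factors, DESeq2, no filter and the 2-group fit, which also left 0 mitochondrial rises. In Kif3a CRISPR there was 1 cytosolic rise under library totals alone and in the 2-group fit. The mitochondrial falls there numbered 0 under library totals alone, DESeq2 and no filter and 2 in the 2-group fit, and the mitochondrial median was 0.0414 under library totals alone. Library totals alone put 57.5% of all Ofd1 CRISPR calls and 54.3% of all Kif3a CRISPR calls on the higher side, against 45.6% and 45.8% with TMM.

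Leaving out each library gave in Ofd1 CRISPR 11 to 14 cytosolic falls, 0 to 1 cytosolic rises, 0 mitochondrial falls, 0 to 3 mitochondrial rises, 664 to 2831 genes called and medians of -0.62 to -0.45 (cytosolic) and 0.0308 to 0.0648 (mitochondrial), in Kif3a CRISPR 6 to 14 cytosolic falls, 0 to 1 cytosolic rises, 0 to 1 mitochondrial falls, 0 to 4 mitochondrial rises, 686 to 3119 genes called and medians of -0.76 to -0.53 (cytosolic) and -0.00760 to 0.0289 (mitochondrial), and in Ofd1 against Kif3a CRISPR 0 to 50 genes called and medians of -0.00 to 0.15 and -0.01 to 0.04. Values near 0 changed sign, none of them called: under library totals alone Iars2 (0.0192) and Yars2 (0.0265) in Ofd1 CRISPR and Hars (0.0279) in Kif3a CRISPR; with the block Ears2 (0.00180), Rars2 (-0.0445) and Yars2 (0.0315) in Ofd1 CRISPR; and with single libraries left out Hars in Kif3a CRISPR (-0.0718 to 0.0696), Yars2 in Kif3a CRISPR (-0.0231 to 0.0425), Hars in Ofd1 CRISPR (-0.0276 to 0.114), Lars2 in Ofd1 CRISPR (-0.112 to 0.149), Rars2 in Ofd1 CRISPR (-0.0443 to 0.0436), Yars2 in Ofd1 CRISPR (-0.0686 to 0.0324), Iars2 in Ofd1 CRISPR (-0.0501 to 0.0175) and Ears2 in Ofd1 CRISPR (-0.0785 to 0.00323). The causes were not tested.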

Other observations

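Of 9 tested genes that link amino acid or uncharged tRNA sensing to mTORC1, 2 rose and 7 did not pass in Ofd1 CRISPR, and 2 rose and 1 fell in Kif3a CRISPR, where 14.9% and 20.1% of all tested genes were called in these comparisons, with medians of -0.04 and -0.02. Castor2, an arginine sensor family gene listed in the table as Gatsl2, rose by 0.60 and 0.64 on the log2 scale (edgeR adjusted p = 0.00305 and 0.00233), and Sesn1, a leucine sensor and p53 target, by 0.36 and 0.35 (0.00843 and 0.0110). Rragd, a Rag GTPase, fell by 0.57 in Kif3a CRISPR (0.00163). The Sesn1 calls were lost without GFP control replicate 2 (adjusted p = 0.115 in Ofd1 CRISPR and 0.112 in Kif3a CRISPR), and in Kif3a CRISPR those of Sesn1 (0.102) and Castor2 (0.0572) without Kif3a CRISPR replicate 1. Of 12 Myc network and nucleolar growth genes 1 rose and 2 fell in each comparison. Among all tested genes 6.79% rose and 8.09% fell in Ofd1 CRISPR, and 9.19% rose and 10.9% fell in Kif3a CRISPR. At these shares few of 12 genes would be called, so the counts do not set this list apart from all genes. Mycn fell by 0.30 and 0.56 (adjusted p = 0.0281 and 0.00144) and the Myc antagonist Mxi1 fell by 0.30 and 0.55 (0.0124 and 0.000449), while the dimerization partner Max rose by 0.27 and 0.31 (0.0237 and 0.0148). With 1 library left out, the Mycn call in Ofd1 CRISPR was lost in 5 of 7 fits: the adjusted p was 0.238 and 0.0996 for the GFP control libraries, 0.0910 for Ofd1 CRISPR replicate 2 and 0.0506 and 0.0503 for the Kif3a CRISPR libraries. In Ofd1 CRISPR the Mxi1 call was lost without GFP control replicate 1 (0.181) and the Max call without GFP control replicate 1 (0.129) or 2 (0.196) or Ofd1 CRISPR replicate 1 (0.0564). In Kif3a CRISPR the Max call was lost without GFP control replicate 1 (0.0843) or 2 (0.119) or Kif3a CRISPR replicate 1 (0.118). The nucleolar genes Ncl, Npm1, Nop56, Nop58 and Fbl did not pass in either comparison.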
